A study of Rattus norvegicus with 6 samples.

Results

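Ribosome biogenesis was followed across stretched, phenylephrine-treated and untreated heart muscle cells of newborn rats through a list of 60 genes that make, modify and assemble ribosomal RNA, including the machinery of RNA polymerase I. The list was given by gene name. Each gene was read from the probe set that carries its symbol in the platform annotation, and from the brightest one over all arrays where it has several. Of the 60 genes, 58 were measured, out of 14217 genes named on the array. Npm1 is read only by probe sets that it shares with its pseudogene Npm1-ps9, and no probe set carries the symbol Npm3 in the annotation used here.

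The arrays were 6 single-colour Affymetrix arrays of Wistar rat ventricular cardiomyocytes taken at 1 to 2 days of age and separated from other heart cells on a Percoll gradient. In the stretch group (2 arrays) the cells sat on a collagen-coated silicone membrane, were plated for 36 h, went without serum for 24 h and were then held under biaxial stretch to 112% for 24 h. In the phenylephrine group (2 arrays) they received phenylephrine, an agonist of the α1-adrenergic receptor, at 50 µmol/l. The treatment label of that group also lists endothelin-1 and angiotensin II, while its titles name phenylephrine alone. The control group (2 arrays) was untreated. No source used here gives how long phenylephrine was applied or on what surface the phenylephrine and control cells grew. RNA of several preparations was combined, and separate cultures for the arrays of 1 group are not stated, so the spread behind each p-value is that between these samples and may be technical.

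Ribosomes are built in the nucleolus. RNA polymerase I transcribes the long precursor of the ribosomal RNAs, small nucleolar ribonucleoproteins modify it, and the small subunit processome and a sequence of large subunit assembly factors fold, cut and package it before export. In cultured cardiomyocytes, growth in size without division is the classical response to load and to α1-adrenergic agonists, and a rise in ribosome content is part of that growth.

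Values are log2 signals as deposited. Differences are those of group means on the log2 scale with the standard error (SE) of a limma fit to all 6 arrays, n = 2 per group throughout. Adjusted p-values are from that fit and were adjusted by the Benjamini-Hochberg method over all 31042 probe sets tested, with a threshold of 0.05. Array medians lay between 8.30 and 8.33. The interquartile range was 1.92, 1.89 and 1.91 on replicate 1 of stretch, phenylephrine and control, and 1.80, 1.70 and 1.82 on replicate 2. All 12 cardiac myocyte markers lay above the median of all probe sets. Their summed signal on a log2 scale was 17.70 to 17.93 in stretch, 17.87 to 18.02 in phenylephrine and 17.76 to 17.86 in control.

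Stretched cells had higher signals than control cells for the ribosome biogenesis genes as a group, by small amounts. All 58 measured members had a stretch mean above their control mean, against 52.8% of all probe sets. The median difference was 0.25 log2, against 0.006 over all probe sets, and the middle part of the members, between the quartiles, lay from 0.18 to 0.38. The range ran from 0.02 for Rrp1b to 0.70 for Gnl3, which corresponds to a 1.63-fold higher signal for Gnl3. In 28 members the stretch mean was over 1.2-fold the control mean. Read from the brightest probe set, as the members were, the 14217 named genes had a median difference of 0.004, with 51.8% above 0.

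No single member passed the threshold in stretch against control (0 of 58), where 0.345% of all probe sets did. At an unadjusted p under 0.05 there were 25 members, all higher with stretch, against 3.60% of all probe sets. In 51 members both stretch arrays lay above both control arrays and in 0 members below, against 19.4% and 16.5% of all probe sets. Among the 14217 named genes at their brightest probe sets, 678 were higher at an unadjusted p under 0.05. Both stretch arrays lay above both controls in 3074 of these genes and below in 2764. The smallest adjusted p among the members was that of Rrp12 (0.0687). With the replicate number as a block 23 members passed, all higher with stretch, against 3.31% of all probe sets. The stretch difference of Rrp12, 0.54, uses no phenylephrine array, so leaving out phenylephrine replicate 1 or 2 could not change it. Quantile normalization of the arrays gave 6 members past the threshold, against 1.24% of all probe sets. The median was 0.27 for replicate 1 of both groups and 0.23 for replicate 2, with 57 and 58 of the 58 members above 0. The smallest two-sided p that permuting 2 against 2 arrays allows in an exact test is 0.333, so no such test was run.

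**Figure D1:**
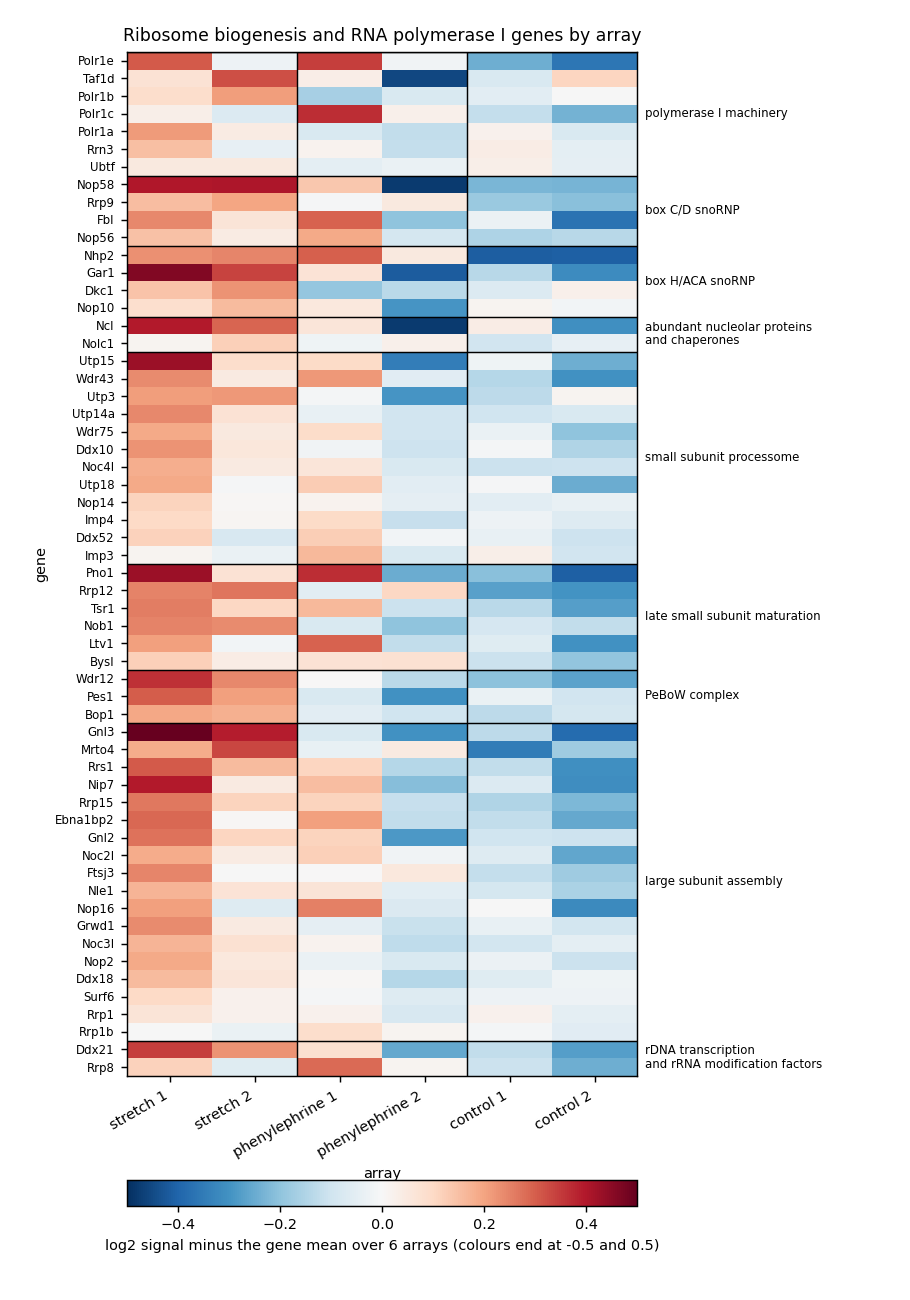
Heat map of the 58 members (rows, grouped by role) on the 6 arrays (columns, stretch then phenylephrine then control), coloured by the log2 deviation from the member's own mean over the arrays. Stretch replicate 1 is above the member's own mean in 58 of 58 rows, and the control columns are above it in 7 and 3 rows.

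The arrays fell into an order that crossed the groups. The median deviation of the members from their own mean was 0.20 and 0.06 on the stretch arrays, 0.06 and -0.10 on the phenylephrine arrays and -0.09 and -0.17 on the control arrays. Stretch replicate 2 and phenylephrine replicate 1 were thus level, and phenylephrine replicate 2 lay between the controls. Both stretch arrays exceeded the other 4 arrays in 29 members, 50.0% of the 58, against 6.48% of all probe sets. All 4 treated arrays exceeded both controls in 18 members, 31.0%, against 9.42%. The highest group mean was that of stretch in 51 members, of phenylephrine in 7 and of control in 0.

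Phenylephrine gave the members a smaller and less uniform difference from control. Of 58 members, 1 rose (Nhp2, a core protein of the box H/ACA particle) and 0 fell, where 3.60% of all probe sets passed the threshold. With the replicate number as a block 12 passed, all higher, against 17.3% of all probe sets. The median difference was 0.08, against 0.006 over all probe sets, and 43 members were above 0, where 52.3% of all probe sets were. At an unadjusted p under 0.05 there were 7 members, all higher, against 6.98% of all probe sets. In 20 members both phenylephrine arrays lay above both controls and in 3 below, against 21.5% and 22.1% of all probe sets. Among the 14217 named genes at their brightest probe sets, 1178 were higher at an unadjusted p under 0.05. Both phenylephrine arrays lay above both controls in 3126 of these genes and below in 3541. In 9 members the phenylephrine mean was over 1.2-fold the control mean.

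The 2 phenylephrine arrays gave different pictures of these genes. Without replicate 2 the median difference was 0.20, with 53 members above 0. Without replicate 1 it was -0.001, with 29 members above 0. Replicate 2 had the narrowest interquartile range and the lowest signal of the probe set for 5S ribosomal RNA, 9.37 against 10.6 to 11.8 on the other 5 arrays. The part of these array properties in the members' values was not tested. Replicate 1 was higher than replicate 2 in 47 members in stretch, 49 in phenylephrine and 44 in control.

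**Figure D2:**
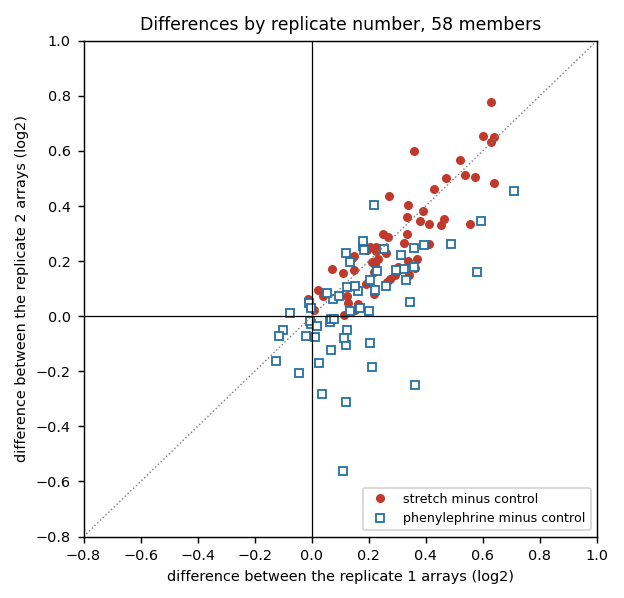
Stretch minus control and phenylephrine minus control of the 58 members on the log2 scale, with the difference between arrays numbered 1 on the horizontal axis and between those numbered 2 on the vertical axis. With stretch 57 and 58 members are above 0 for the 2 numbers, and with phenylephrine 48 and 35.

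Stretch was also set directly against phenylephrine. No member passed (0 of 58), where 1.33% of all probe sets did. With the replicate number as a block 18 passed, all higher in stretch, against 12.0% of all probe sets. The median difference was 0.17, against 0.004 over all probe sets, and 51 members were above 0, against 51.6% of probe sets. At an unadjusted p under 0.05 there were 17 members, all higher in stretch, against 7.84% of all probe sets. Both stretch arrays lay above both phenylephrine arrays in 30 members and below in 1, against 21.6% and 17.2%. Among the 14217 named genes at their brightest probe sets, 1286 were higher in stretch at an unadjusted p under 0.05. Both stretch arrays lay above both phenylephrine arrays in 3380 of these genes and below in 2521. The median was 0.30 in the box H/ACA particle, 0.37 in PeBoW, 0.10 in the processome and 0.11 in the polymerase I machinery. The median was 0.099 without stretch replicate 1 and 0.077 without phenylephrine replicate 2. Without phenylephrine replicate 1 the differences of Nop58 and Gar1 were 0.88 and 0.82. Quantile normalization gave 6 members past the threshold, against 4.92% of all probe sets. Stretch and phenylephrine share their controls, so their differences from control are not independent of each other.

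**Figure D3:**
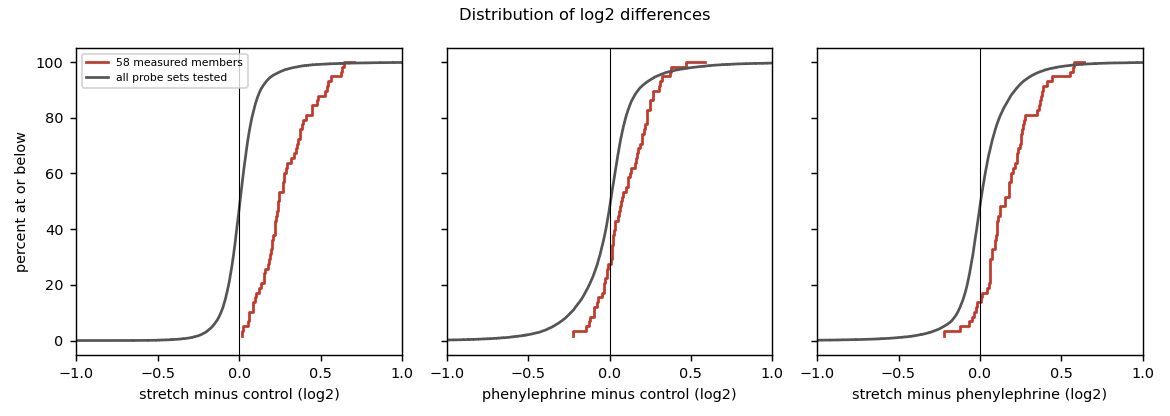
Percent of the 58 members and of all 31042 probe sets tested (vertical axis) at or below a log2 difference (horizontal axis, drawn between -1 and 1), in 1 panel for each comparison. The members' curve lies right of that of all probe sets at its middle in each panel, with medians of 0.25 against 0.006 for stretch minus control, 0.08 against 0.006 for phenylephrine minus control and 0.17 against 0.004 for stretch minus phenylephrine.

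Promoter sequences are shown because several short motifs are more frequent in the members' promoters than in those of all array genes. The E-box CACGTG, a sequence bound by Myc and related factors, was looked for in RefSeq promoters of the rat assembly GRCr8, from 250 bases before to 50 bases after each gene's start. Of the 58 members, 53 were matched to a promoter. The E-box was present in 19 of these 53 promoters (35.8%), against 6.42% of all 33469 promoters and 8.65% of the 13192 promoters of genes on the array. It reads the same on both strands. Of its 20 matches, 17 lay within 70 bases of the start. Of the 19 members with an E-box, 8 had an unadjusted p under 0.05 in stretch against control, as had 25 of all 58 members. The 30-base windows below are those of these 8, with the E-box in capitals and the strand that of the gene.
Gnl3 (chr16:6219790-6219819, minus strand): agttccagttcgCACGTGgcgcccgagacg
Rrp12 (chr1:250655298-250655327, minus strand): gctgagaatacaCACGTGggttctgctgtg
Pno1 (chr14:95819885-95819914, minus strand): ggcacaacctcgCACGTGttccagtggttg
Tsr1 (chr10:60258798-60258827, plus strand): gtttactcggtgCACGTGggcagttagaat
Rrp15 (chr13:100830769-100830798, minus strand): ccgttcaggactCACGTGtgaaccccggag
Pes1 (chr14:83074284-83074313, plus strand): ccctaagcggggCACGTGcggtaggaagta
Nle1 (chr10:68340173-68340202, minus strand): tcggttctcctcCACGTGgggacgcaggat
Noc3l (chr1:245997673-245997702, minus strand): ttgagctctgggCACGTGtgtgtttcctac

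The bases on either side of the E-box differ between these members. Members with an E-box had a median stretch difference of 0.24 and the 34 members without one 0.23, close to each other. In phenylephrine against control the medians were 0.17 with an E-box and 0.05 without. This split was not particular to the E-box. Among the motifs described below, it was 0.16 and 0.05 for the ETS core CCGGAAG and 0.17 and 0.06 for the CCAAT box. For the E-box variant CACGCG the medians were 0.08 and 0.08. These are descriptions of letters in a window and not of binding.

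Other motifs were searched on both strands in the same windows, and matches that overlap those of another motif were counted for both. The ETS core CCGGAAG was found in 47.2% of the members' promoters, against 8.75% of all promoters and 14.23% of those of array genes. The E-box variant CACGCG was found in 34.0%, against 8.50% and 14.82%. The CCAAT box was found in 24.5%, against 37.49% and 36.78%. Exact matches to 1 long motif each of NRF1 and YY1 were found in 1.9% and in 0 of 53, against 0.85% and 0.68% of all promoters and 1.54% and 1.43% of those of array genes. The median GC content was 59.0% in the members' promoters, 51.7% in all promoters and 59.7% in those of array genes. The 250 bases before the start are printed for the member with the largest stretch difference, Gnl3, and for the member that passed the threshold with phenylephrine, Nhp2. Capitals mark CACGTG and CGCGTG, which is CACGCG on the other strand, in Gnl3, and CCGGAAG and the CCAAT box, which is ATTGG on the other strand, in Nhp2.
Gnl3 (chr16:6219783-6220032, minus strand): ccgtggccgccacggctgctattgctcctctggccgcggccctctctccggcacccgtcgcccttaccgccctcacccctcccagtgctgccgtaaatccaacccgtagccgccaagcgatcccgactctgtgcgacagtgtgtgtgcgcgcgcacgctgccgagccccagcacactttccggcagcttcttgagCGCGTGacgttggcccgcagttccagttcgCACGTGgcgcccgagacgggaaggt
Nhp2 (chr10:36377770-36378019, plus strand): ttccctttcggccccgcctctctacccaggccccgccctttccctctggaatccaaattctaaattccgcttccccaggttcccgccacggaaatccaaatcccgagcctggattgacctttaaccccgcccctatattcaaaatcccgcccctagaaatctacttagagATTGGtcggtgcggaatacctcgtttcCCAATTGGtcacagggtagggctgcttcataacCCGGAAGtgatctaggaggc

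In the Gnl3 sequence the E-box begins 25 bases and CGCGTG 55 bases before the start. In the Nhp2 sequence CCGGAAG begins 20 bases before the start, CCAAT 53 bases before it, and ATTGG 50 and 80 bases before it, of which the match at 50 overlaps CCAAT.

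The RNA polymerase I machinery (7 members) had the smallest median stretch difference of the 9 role groups, at 0.16. Its median was -0.05 in phenylephrine against control. Of the 7 members, 0 passed the threshold in any comparison. Polr1e, a polymerase-associated factor, read 9.42 and 9.09 on the stretch arrays, 9.46 and 9.10 on the phenylephrine arrays and 8.87 and 8.75 on the control arrays. All 4 treated arrays lay above both controls, and the 2 treatments overlapped. The stretch difference of Polr1e was 0.45 ± 0.15 (adjusted p = 0.641) and its phenylephrine difference 0.47 ± 0.15 (adjusted p = 0.164).

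Ubtf, the upstream binding factor that keeps ribosomal DNA open for transcription, read 9.63 and 9.63 on the stretch arrays, 9.53 and 9.55 on the phenylephrine arrays and 9.61 and 9.53 on the control arrays. Its arrays lay close together, with a stretch difference of 0.06 ± 0.09 and a phenylephrine difference of -0.03 ± 0.09. Its 3 other probe sets did not share one direction, at 0.04, -0.08 and -0.20 for stretch and 0.08, -0.08 and -0.37 for phenylephrine. In the last of them all treated arrays lay below both controls, and the phenylephrine difference did not pass (adjusted p = 0.121). Taf1d, a subunit of the promoter selectivity factor SL1, read 10.17 and 10.42 on the stretch arrays, 10.13 and 9.64 on the phenylephrine arrays and 10.02 and 10.20 on the control arrays. Phenylephrine replicate 2 was the lowest array by far, and the controls lay between it and the higher stretch array. The phenylephrine difference of Taf1d was -0.23 ± 0.18 (adjusted p = 0.603), the lowest of all members at their brightest probe sets. It was 0.02 without phenylephrine replicate 2.

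Polr1a and Polr1b, the catalytic core subunits, were higher in stretch than in phenylephrine by 0.23 ± 0.09 and 0.27 ± 0.09 and did not pass the threshold (adjusted p = 0.367 and 0.239). Polr1c, a subunit that RNA polymerases I and III share, had the lowest stretch minus phenylephrine difference of all members, -0.22 ± 0.14. Its phenylephrine difference was 0.38 ± 0.14 (unadjusted p = 0.0284, adjusted p = 0.232). Rrn3, which brings the polymerase to the promoter, had differences of 0.06 ± 0.12 with stretch and -0.05 ± 0.12 with phenylephrine.

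The box C/D small nucleolar ribonucleoprotein (4 members), which methylates ribosomal RNA on the ribose, had a median stretch difference of 0.36 and a median phenylephrine difference of 0.21. Both stretch arrays lay above both controls in all 4 members, against 19.4% of all probe sets. Nop58, a core protein of the particle, read 11.48 and 11.48 on the stretch arrays, 11.21 and 10.60 on the phenylephrine arrays and 10.85 and 10.84 on the control arrays. The stretch arrays were highest, and the phenylephrine arrays lay on either side of the controls, 0.61 apart. The stretch difference of Nop58 was 0.63 ± 0.19 (adjusted p = 0.501). Its phenylephrine difference was 0.06 ± 0.19, and without phenylephrine replicate 1 and replicate 2 it was -0.25 and 0.36.

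Fbl, the methyltransferase fibrillarin, read 11.15 and 10.98 on the stretch arrays, 11.21 and 10.71 on the phenylephrine arrays and 10.88 and 10.54 on the control arrays. Its highest array was phenylephrine replicate 1, and replicate 1 was higher than replicate 2 in each group. The differences of Fbl were 0.35 ± 0.19 with stretch and 0.25 ± 0.19 with phenylephrine, and neither passed. Nop56, the partner of Nop58 in the core, read 11.00 and 10.89 on the stretch arrays, 11.04 and 10.76 on the phenylephrine arrays and 10.69 and 10.71 on the control arrays. All treated arrays of Nop56 lay above both controls, with differences of 0.24 ± 0.13 for stretch and 0.20 ± 0.13 for phenylephrine. Rrp9, a protein of the U3 particle, had a stretch difference of 0.37 ± 0.10 (adjusted p = 0.344).

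The box H/ACA particle (4 members), which converts uridines of ribosomal RNA to pseudouridine and also forms part of telomerase, held the single member past the threshold. Nhp2, one of its RNA-binding core proteins, read 11.02 and 11.04 on the stretch arrays, 11.09 and 10.84 on the phenylephrine arrays and 10.38 and 10.38 on the control arrays. All 4 treated arrays lay above both controls, and the controls differed by 0.004. Nhp2 rose with phenylephrine by 0.58 ± 0.12, which is 1.5-fold (adjusted p = 0.0443). With stretch the difference was larger, 0.65 ± 0.12, which is 1.56-fold, and did not pass (adjusted p = 0.124), although the unadjusted p was smaller, at 0.000806 for stretch and 0.00151 for phenylephrine. The call of Nhp2 was lost without stretch replicate 1 (adjusted p = 0.110) or 2 (0.109), without phenylephrine replicate 1 (0.0635) and without control replicate 1 (0.243) or 2 (0.305). Over all alternatives its adjusted p ran from 0.000636 to 0.305.

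Gar1, another core protein of the particle, was looked at after its values were seen and read 10.45 and 10.33 on the stretch arrays, 10.06 and 9.57 on the phenylephrine arrays and 9.85 and 9.67 on the control arrays. The stretch arrays were highest, and the phenylephrine arrays lay on either side of the controls. Gar1 had a stretch difference of 0.63 ± 0.17 (adjusted p = 0.368) and a phenylephrine difference of 0.05 ± 0.17. Dkc1, the pseudouridine synthase dyskerin, read 11.05 and 11.13 on the stretch arrays, 10.72 and 10.77 on the phenylephrine arrays and 10.84 and 10.94 on the control arrays. Phenylephrine was the lowest group of Dkc1, with a difference of -0.14 ± 0.11 from control (adjusted p = 0.599), and stretch the highest, with 0.21 ± 0.11. Nop10, the smallest protein of the particle, read 13.08 and 13.16 on the stretch arrays, 13.05 and 12.70 on the phenylephrine arrays and 13.01 and 12.99 on the control arrays. Its stretch arrays lay above the controls by 0.12 ± 0.13, and its phenylephrine arrays did not share a side of them.

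**Figure D4:**
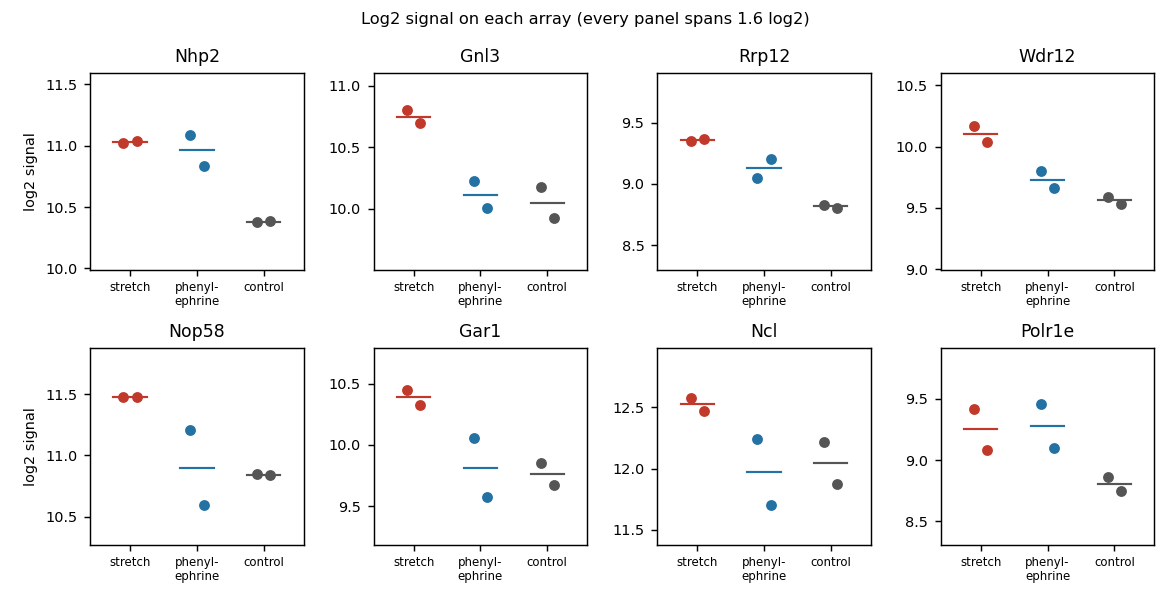
Log2 signal of Nhp2, Gnl3, Rrp12, Wdr12, Nop58, Gar1, Ncl and Polr1e on each of the 6 arrays, with points for arrays and a bar for the group mean, stretch left of phenylephrine left of control. Nhp2, Gnl3, Wdr12, Nop58, Ncl and Polr1e had the highest stretch difference of their role group, and Rrp12 and Gar1 were chosen after their values were seen. Both stretch points lie above both control points in each panel of these chosen genes. Such separation was found in 51 of all 58 members, against 19.4% of all probe sets. The phenylephrine points of Nop58, Gar1 and Ncl lie far apart.

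Abundant nucleolar proteins were represented by nucleolin and by Nolc1. Ncl, which binds the precursor RNA and nucleolar chromatin, read 12.58 and 12.47 on the stretch arrays, 12.24 and 11.70 on the phenylephrine arrays and 12.22 and 11.87 on the control arrays. Phenylephrine replicate 2 was its lowest array, and both stretch arrays its highest. Ncl had a stretch difference of 0.48 ± 0.19 (adjusted p = 0.837) and a phenylephrine difference of -0.07 ± 0.19. Nolc1, a chaperone of small nucleolar ribonucleoproteins, read 9.93 and 10.03 on the stretch arrays, 9.89 and 9.94 on the phenylephrine arrays and 9.82 and 9.88 on the control arrays, with a stretch difference of 0.13 ± 0.10 and a phenylephrine difference of 0.07 ± 0.10. Its 3 other probe sets gave 0.45, 0.13 and 0.04 for stretch. The 3 probe sets that Npm1, the nucleolar chaperone nucleophosmin, shares with its pseudogene gave stretch differences of 0.33, 0.21 and 0.27 and phenylephrine differences of 0.15, -0.16 and -0.03, with 0 of 3 past the threshold.

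The small subunit processome (12 members), the large particle that forms on the 5′ part of the precursor, had a median stretch difference of 0.22 and a median phenylephrine difference of 0.06. Of the 12, 9 had both stretch arrays above both controls, against 19.4% of all probe sets. Utp15, one of its early-binding proteins, read 9.70 and 9.36 on the stretch arrays, 9.37 and 8.92 on the phenylephrine arrays and 9.25 and 9.03 on the control arrays. Stretch replicate 2 lay level with phenylephrine replicate 1, and phenylephrine replicate 2 was the lowest. The differences of Utp15 were 0.39 ± 0.17 with stretch (adjusted p = 0.923) and 0.01 ± 0.17 with phenylephrine.

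Wdr43, a repeat protein of the same early subcomplex, read 9.78 and 9.58 on the stretch arrays, 9.76 and 9.48 on the phenylephrine arrays and 9.40 and 9.24 on the control arrays. All 4 treated arrays lay above both controls, with differences of 0.36 ± 0.13 for stretch (adjusted p = 0.685) and 0.30 ± 0.13 for phenylephrine (adjusted p = 0.292). Utp3 read 10.89 and 10.89 on the stretch arrays, 10.67 and 10.38 on the phenylephrine arrays and 10.55 and 10.69 on the control arrays. Its stretch arrays were highest and phenylephrine replicate 2 lowest. Its differences were 0.27 ± 0.13 with stretch and -0.09 ± 0.13 with phenylephrine. Imp3, which helps to dock the U3 RNA on the precursor, read 10.78 and 10.73 on the stretch arrays, 10.93 and 10.69 on the phenylephrine arrays and 10.79 and 10.67 on the control arrays. The groups overlapped, and the differences of Imp3 were 0.03 ± 0.13 and 0.08 ± 0.13, the lowest stretch difference of the processome. The other 8 members (Utp14a, Utp18, Wdr75, Imp4, Nop14, Noc4l, Ddx10 and Ddx52) had stretch differences from 0.09 for Ddx52 to 0.25 for Utp14a.

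Late maturation factors of the small subunit (6 members) had a median stretch difference of 0.37 and the highest median phenylephrine difference of the role groups, 0.25. All 6 had both stretch arrays above both controls, against 19.4% of all probe sets. Rrp12, which in yeast takes part in the export and maturation of both subunits, was looked at after its values were seen and read 9.35 and 9.37 on the stretch arrays, 9.05 and 9.21 on the phenylephrine arrays and 8.83 and 8.80 on the control arrays. The 3 groups did not overlap and stood in the order stretch, phenylephrine, control. The stretch difference was 0.54 ± 0.09, with a 95% confidence interval of 0.34 to 0.75 (adjusted p = 0.0687), and the phenylephrine difference 0.31 ± 0.09 (adjusted p = 0.118).

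The signal of Rrp12 was also read by 2 further probe sets, of which 1 passed the threshold in both comparisons with control. It read 9.64 and 9.40 on the stretch arrays, 9.12 and 8.92 on the phenylephrine arrays and 8.55 and 8.40 on the control arrays. The stretch difference of this probe set was 1.04 ± 0.12, which is 2.06-fold (adjusted p = 0.0139), and its phenylephrine difference 0.54 ± 0.12 (adjusted p = 0.0482). Its stretch call was lost without stretch replicate 1 (adjusted p = 0.111), control replicate 1 (0.0653) or control replicate 2 (0.137), and its phenylephrine call without any 1 of the 6 arrays (0.0543 to 0.331). The remaining probe set gave 0.47 ± 0.08 and 0.25 ± 0.08, and did not pass (adjusted p = 0.105 and 0.179). The 3 Rrp12 probe sets thus shared the order of the groups and differed in the size of the difference.

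Pno1, the partner of the Nob1 nuclease, read 10.43 and 10.07 on the stretch arrays, 10.37 and 9.75 on the phenylephrine arrays and 9.79 and 9.59 on the control arrays. Both stretch arrays and phenylephrine replicate 1 lay above both controls, phenylephrine replicate 2 lay between them, and the replicates of stretch and phenylephrine were 0.35 and 0.62 apart. Its differences were 0.56 ± 0.21 with stretch (adjusted p = 0.741) and 0.37 ± 0.21 with phenylephrine (adjusted p = 0.451). Nob1, the nuclease that makes the final cut of the small subunit RNA, read 10.65 and 10.63 on the stretch arrays, 10.32 and 10.20 on the phenylephrine arrays and 10.31 and 10.27 on the control arrays. The stretch arrays stood apart at the top and the other 4 lay within 0.13. Nob1 had a stretch difference of 0.35 ± 0.11 (adjusted p = 0.531) and a phenylephrine difference of -0.03 ± 0.11. Bysl, the assembly factor bystin, read 10.09 and 10.01 on the stretch arrays, 10.05 and 10.05 on the phenylephrine arrays and 9.87 and 9.78 on the control arrays. The difference of Bysl from control was 0.23 ± 0.10 for stretch and 0.23 ± 0.10 for phenylephrine, and stretch minus phenylephrine had a 95% confidence interval of -0.23 to 0.24. Tsr1, a GTPase-like factor that guards the immature small subunit, had a stretch difference of 0.39 ± 0.13, and Ltv1, a factor of its late assembly, 0.28 ± 0.17.

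The PeBoW complex of Pes1, Bop1 and Wdr12 is needed for the maturation of large subunit RNA. It was the only role group whose members all had an unadjusted p under 0.05 in stretch against both control and phenylephrine. All 3 were higher in stretch, where 3.60% and 7.84% of all probe sets were higher at that p. Wdr12 read 10.17 and 10.04 on the stretch arrays, 9.80 and 9.66 on the phenylephrine arrays and 9.59 and 9.53 on the control arrays. The groups stood apart without overlap, stretch highest and control lowest. Its stretch difference was 0.54 ± 0.11, which is 1.45-fold (adjusted p = 0.136), and its phenylephrine difference 0.17 ± 0.11 (adjusted p = 0.496). Bop1 read 10.12 and 10.10 on the stretch arrays, 9.87 and 9.82 on the phenylephrine arrays and 9.79 and 9.84 on the control arrays, with the stretch arrays highest and the other 4 within 0.08. Its stretch difference was 0.30 ± 0.10 (adjusted p = 0.6). Pes1 read 9.82 and 9.72 on the stretch arrays, 9.44 and 9.21 on the phenylephrine arrays and 9.49 and 9.42 on the control arrays. Here phenylephrine replicate 2 was lowest, and the stretch difference was 0.32 ± 0.11 (adjusted p = 0.658) and the phenylephrine difference -0.13 ± 0.11. Stretch exceeded phenylephrine by 0.44 ± 0.11 in Pes1, 0.37 ± 0.11 in Wdr12 and 0.26 ± 0.10 in Bop1 (adjusted p = 0.121, 0.184 and 0.311).

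Large subunit assembly factors (18 members) had a median stretch difference of 0.26 and a median phenylephrine difference of 0.11. With stretch, both arrays lay above both controls in 16 of the 18, against 19.4% of all probe sets. An unadjusted p under 0.05 was found in 9, all higher, against 3.60% of all probe sets. Gnl3, the nucleolar GTPase nucleostemin, read 10.80 and 10.70 on the stretch arrays, 10.23 and 10.00 on the phenylephrine arrays and 10.17 and 9.92 on the control arrays. Both stretch arrays lay at least 0.47 above the other 4, and the phenylephrine and control arrays overlapped. The stretch difference of Gnl3 was the largest of all members at 0.70 ± 0.13, which is 1.63-fold, with a 95% confidence interval of 0.39 to 1.01 (adjusted p = 0.127). Its phenylephrine difference was 0.07 ± 0.13 (adjusted p = 0.87), and stretch exceeded phenylephrine by 0.64 ± 0.13 (adjusted p = 0.0789), the smallest adjusted p of that comparison among members.

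Mrto4, a relative of the ribosomal stalk protein P0 that holds its place during assembly in yeast, read 9.80 and 9.95 on the stretch arrays, 9.57 and 9.66 on the phenylephrine arrays and 9.26 and 9.43 on the control arrays. Both stretch arrays were highest and both controls lowest, with differences of 0.53 ± 0.11 for stretch (adjusted p = 0.161) and 0.27 ± 0.11 for phenylephrine (adjusted p = 0.269). Ddx18, an RNA helicase, read 9.80 and 9.70 on the stretch arrays, 9.64 and 9.49 on the phenylephrine arrays and 9.58 and 9.62 on the control arrays. The stretch arrays of Ddx18 were highest and phenylephrine replicate 2 lowest. Its stretch difference was 0.15 ± 0.10 and its phenylephrine difference -0.03 ± 0.10, the lowest phenylephrine difference of the large subunit factors. Rrp1b read 9.97 and 9.93 on the stretch arrays, 10.05 and 9.98 on the phenylephrine arrays and 9.96 and 9.91 on the control arrays. The stretch and control arrays of Rrp1b overlapped and both phenylephrine arrays lay above the other 4. Its stretch difference, 0.02 ± 0.10, was the smallest of all 58 members.

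Among the other 14 large subunit factors, stretch differences were 0.45 ± 0.13 for Rrs1, a factor that helps to place the 5S particle, 0.41 ± 0.17 for Nip7, 0.37 ± 0.11 for Rrp15 and 0.34 ± 0.15 for Ebna1bp2. Gnl2, a GTPase related to Gnl3, had 0.29 ± 0.14, and Noc2l and Noc3l, which travel with assembling subunits in yeast, had 0.27 ± 0.10 and 0.19 ± 0.07. The RNA methyltransferases Ftsj3 and Nop2 had 0.27 ± 0.11 and 0.19 ± 0.11. Nle1, Nop16 and Grwd1 lay between 0.20 and 0.24, and Surf6 and Rrp1 were at 0.09 and 0.06. None of these 14 passed the threshold in any comparison.

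Ddx21, a helicase that links transcription of ribosomal DNA with processing of its product, read 10.81 and 10.68 on the stretch arrays, 10.54 and 10.21 on the phenylephrine arrays and 10.34 and 10.19 on the control arrays. The stretch arrays were highest, and phenylephrine replicate 2 lay between the controls. Its stretch difference was 0.49 ± 0.14 (adjusted p = 0.477) and its phenylephrine difference 0.11 ± 0.14. Rrp8, the nucleomethylin that methylates ribosomal RNA and takes part in silencing ribosomal DNA, read 8.71 and 8.54 on the stretch arrays, 8.88 and 8.61 on the phenylephrine arrays and 8.49 and 8.36 on the control arrays. All 4 treated arrays lay above both controls, with phenylephrine higher on average, at 0.33 ± 0.11 (adjusted p = 0.189) against 0.20 ± 0.11 for stretch.

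**Figure D5:**
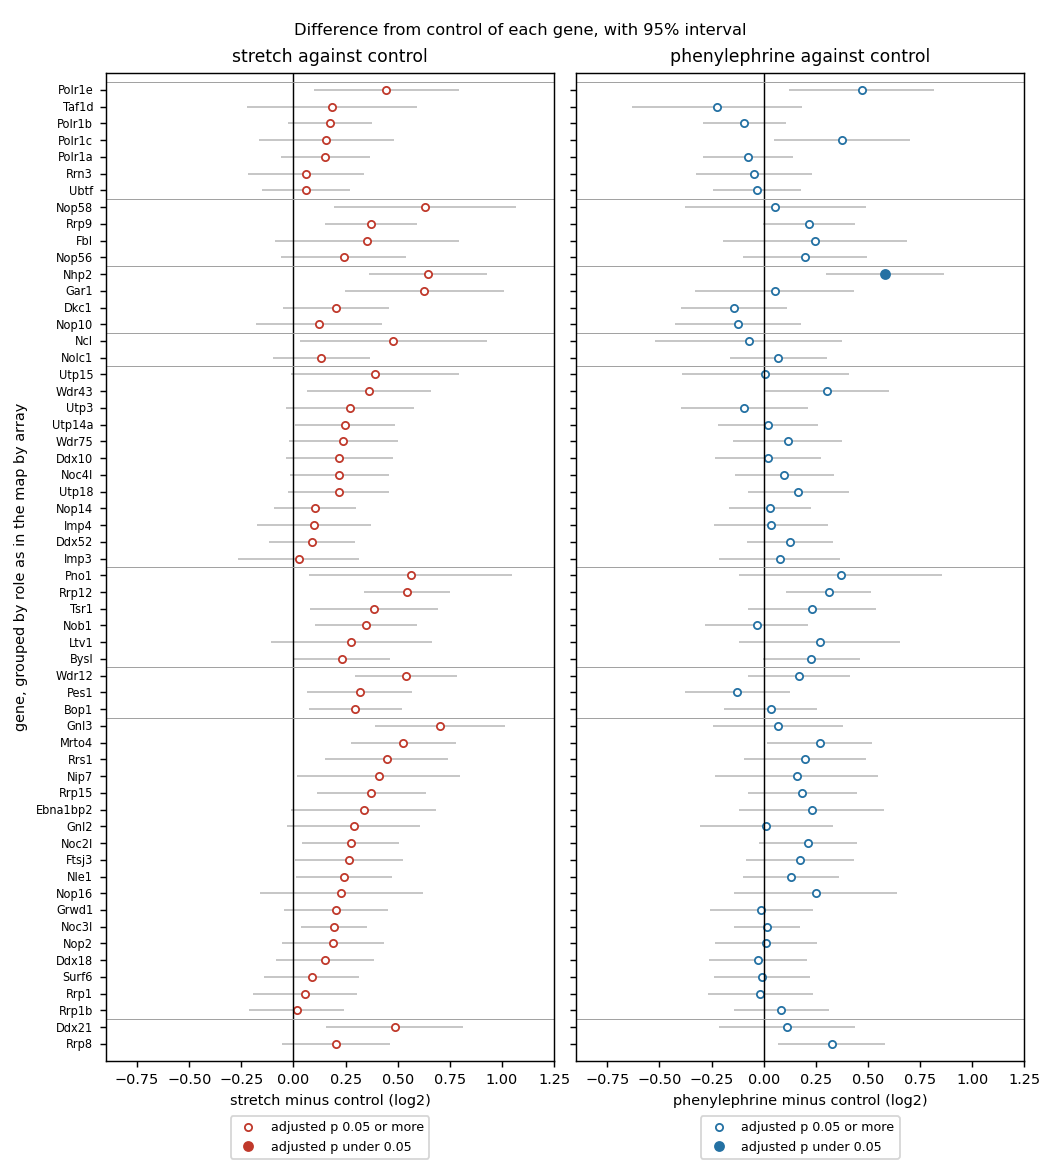
Log2 difference from control of each of the 58 members, by role group, for stretch and for phenylephrine, with lines for the 95% confidence interval and n = 2 arrays per group (filled point, adjusted p under 0.05). All 58 stretch points lie above 0, and the phenylephrine points spread from -0.23 (Taf1d) to 0.58 (Nhp2).

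Of the 58 members, 16 have more than 1 probe set, with 22 probe sets besides the brightest. Of these 22, 17 had a stretch difference above 0, with a median of 0.12 and a range from -0.20 to 1.04, and 1 passed. With phenylephrine 15 were above 0 and 1 passed. Both calls were those of the Rrp12 probe set above. The sign was that of the brightest probe set in 17 of 22 for stretch and for phenylephrine.

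Ribosome biogenesis genes outside the 58 were read from lists of further small and large subunit factors, further polymerase I machinery and the RNA exosome (107 of 115 measured). With stretch, 93 of 107 were above 0, against 52.8% of all probe sets, with a median of 0.16, and 0 passed. At an unadjusted p under 0.05, 26 were higher, against 3.60% of all probe sets, and 1 was lower. With phenylephrine, 65 were above 0, against 52.3% of all probe sets, with a median of 0.03, and 0 passed. The 39 small subunit factors had a median stretch difference of 0.21 and the 37 large subunit factors 0.17. The 16 further genes of the polymerase I machinery had 0.09 and the 15 exosome and trimming genes 0.12. RNA polymerase III, which makes 5S ribosomal RNA and transfer RNAs, had a median of 0.01 over 19 of 22 genes, with 11 above 0 and 0 passed.

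Among these genes Riok3, a kinase of small subunit maturation, read 11.76 and 11.54 on the stretch arrays, 11.23 and 10.59 on the phenylephrine arrays and 11.13 and 10.94 on the control arrays (stretch difference 0.61 ± 0.21, adjusted p = 0.649). Its stretch arrays were highest and phenylephrine replicate 2 lowest. Rpf2, which brings the 5S particle to the large subunit, read 9.42 and 9.31 on the stretch arrays, 9.14 and 8.79 on the phenylephrine arrays and 8.82 and 8.73 on the control arrays (stretch difference 0.59 ± 0.12, adjusted p = 0.163). Polr1f, a polymerase I subunit, had a stretch difference of 0.31 ± 0.10, and Polr3d, a polymerase III subunit, 0.28 ± 0.13. With phenylephrine the largest differences in size of each list were 0.34 ± 0.13 for Ddx49, an RNA helicase, 0.48 ± 0.18 for Bccip and 0.41 ± 0.16 for Polr2f, a subunit shared by the nuclear RNA polymerases. Maf1, the repressor of RNA polymerase III, had a phenylephrine difference of -0.45 ± 0.11 (adjusted p = 0.0746). Exosc5, an exosome subunit, was below control in both treatments, with differences of -0.28 ± 0.11 for stretch and -0.41 ± 0.11 for phenylephrine (adjusted p = 0.83 and 0.103).

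A list of growth regulators and nucleolar stress genes (17 of 18 measured) was read beside the members, with 1 riser in stretch and 2 in phenylephrine. Over all probe sets 0.345% and 3.60% passed. The list mixes drivers of growth with inhibitors, and as a whole it did not rise in both treatments. Its median was 0.03 with stretch, with 10 above 0, and -0.10 with phenylephrine, with 6 above 0. At an unadjusted p under 0.05, 6 were higher and 1 lower with stretch, and 4 higher and 5 lower with phenylephrine. Of all 31042 probe sets, 1117 were higher and 602 lower with stretch at that p, and 2168 higher and 2974 lower with phenylephrine. Myc, a transcription factor that drives ribosome biogenesis genes, rose with stretch. It read 10.16 and 9.94 on the stretch arrays, 9.13 and 9.03 on the phenylephrine arrays and 9.22 and 9.09 on the control arrays. Both stretch arrays lay at least 0.72 above the other 4, and the phenylephrine and control arrays overlapped. The stretch difference of Myc was 0.90 ± 0.11, which is 1.86-fold (adjusted p = 0.0223), its phenylephrine difference -0.07 ± 0.11 (adjusted p = 0.826), and stretch exceeded phenylephrine by 0.97 ± 0.11 (adjusted p = 0.00958). The adjusted p against control missed the threshold without stretch replicate 1 (adjusted p = 0.208) or 2 (0.0624) and without control replicate 1 (0.135) or 2 (0.261), and ran from 6.93e-06 to 0.261 over all alternatives. The call against phenylephrine was lost without stretch replicate 1 (0.0874).

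Mycn, its relative, rose with phenylephrine and read 8.48 and 8.42 on the stretch arrays, 8.84 and 8.80 on the phenylephrine arrays and 8.38 and 8.35 on the control arrays. Both phenylephrine arrays of Mycn were highest, with a difference of 0.46 ± 0.07 from control (adjusted p = 0.0135), against 0.08 ± 0.07 for stretch. Stretch minus phenylephrine was -0.37 ± 0.07 in Mycn (adjusted p = 0.0493), a call lost without any 1 of the 6 arrays (0.0833 to 0.373). Eif4ebp1, an inhibitor of cap-dependent translation, rose with phenylephrine by 0.83 ± 0.12 (adjusted p = 0.0116). Its stretch difference was 0.54 ± 0.12 (adjusted p = 0.2). Without control replicate 1 or 2 the calls against control were lost for Mycn (adjusted p = 0.0964 and 0.132) and for Eif4ebp1 (0.0501 and 0.114).

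Markers of other heart cells were also read, and the lists did not share one direction. Of all 31042 probe sets, 95 rose and 12 fell with stretch, and 538 rose and 579 fell with phenylephrine. Differences above 0 were found in 52.8% of all probe sets with stretch and in 52.3% with phenylephrine. All 12 fibroblast markers were lower than control in both treatments. Their median was -0.23 with stretch (0 of 12 passed) and -0.43 with phenylephrine, where 4 fell (Col3a1, Dpt, Pdgfra and Postn). The log2 of their summed signal was 15.59 to 15.65 in stretch, 15.40 to 15.49 in phenylephrine and 15.83 to 15.91 in control, and 0 of 12 lay below the median of all probe sets. Of 9 endothelial markers, 9 were below 0 with stretch (0 passed) and 8 with phenylephrine, where Kdr and Emcn fell, with sums of 12.08 to 12.10, 11.90 to 11.96 and 12.21 to 12.22 in stretch, phenylephrine and control. Smooth muscle and pericyte markers (8), which include genes that myocytes also express, had sums of 14.27 to 14.38, 14.54 to 14.56 and 13.99 to 14.02, with Cnn1 up in stretch and Acta2, Cnn1 and Cspg4 up in phenylephrine. Cell cycle genes (11) had sums of 13.00 to 13.08, 12.93 to 13.12 and 12.97 to 13.04, which overlap. Of these 11, 7 were above 0 with stretch and 2 with phenylephrine, with medians of 0.02 and -0.04, and 0 passed against control. In stretch against phenylephrine 1 cell cycle gene and 1 endothelial marker rose and 2 smooth muscle and pericyte markers fell. In that comparison 1.33% of all probe sets passed. Macrophage and leukocyte markers (8) had sums of 11.77 to 11.86, 11.58 to 11.74 and 11.84 to 11.87, and Cd68 fell with phenylephrine. Red blood cell markers (3) had sums of 10.06 to 10.12, 10.15 to 10.22 and 10.16 to 10.24. Of the endothelial markers 5 and of the macrophage and leukocyte markers 4 lay below the median of all probe sets. The fibroblast median lay further below 0 with phenylephrine (-0.43) than with stretch (-0.23), and the members' median further above 0 with stretch (0.25) than with phenylephrine (0.08). The part of cell composition in the members' differences was not tested, and in such bulk samples fewer cells of a type and less RNA per cell cannot be told apart. The 5S ribosomal RNA probe set is an array control and was left out of the tests. It read 10.7 and 11.1 on the stretch arrays, 10.6 and 9.37 on the phenylephrine arrays and 11.4 and 11.8 on the control arrays. All treated arrays lay below both controls, and whether this reflects the amount of 5S ribosomal RNA in the cells was not tested.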

How the data were processed

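Expression was measured on 6 single-colour arrays, 2 per group. The authors deposited a table with 1 value for each probe set on each array, taken here as log2 expression because the values run from 5.80 to 15.18. How the authors summarised and normalized probe sets is not given in the sources used. Normalization across the array would hide a change shared by most probe sets.

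Of 31099 probe sets, 57 array controls were left out. Genes were named from the platform annotation of 2016: 20826 probe sets had 1 symbol, 436 several and 9780 none, and probe sets with several were named for no gene. A gene was read from its brightest probe set. Entrez identifiers of all 58 measured members matched the rat RefSeq table of GRCr8, and 0 symbols needed an update.

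One mean per group was fitted with limma 3.58.1 in R 4.3.3 (lmFit, eBayes with a mean-variance trend), two-sided, with 3 residual and 4.8 prior degrees of freedom. Members, role groups, pathway and marker lists were chosen with earlier results of these data known. Named members are those past the threshold and, in each role group, the highest and lowest in each comparison with control, and from each pathway list up to 4 genes past the threshold or else the largest difference. Rrp12 and Gar1 were added after their values were seen. Of 155 pathway and 68 marker genes, 143 and 63 were measured. Promoters are RefSeq sequences of GRCr8, matched by Entrez identifier.

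The alternatives were a replicate block, quantile normalization, median centring, no variance trend, the arrays of 2 groups only, a filter at the 25th percentile, the mean of a gene's probe sets, and each array left out. Same-numbered arrays deviated together across probe sets (r = 0.534 for stretch and phenylephrine, 0.673 for stretch and control and 0.487 for phenylephrine and control), but the labels do not say that a number marks a shared preparation, so the fit has no block.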

Additional observations from a re-analysis of the deposited data

How the results depend on the processing

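The number of members past the threshold depended on the fit. With the replicate block it was 23 in stretch against control, 12 in phenylephrine against control and 18 in stretch against phenylephrine, against 0, 1 and 0 as reported, while over all probe sets the counts were 1028, 5384 and 3734, against 107, 1117 and 413. Same-numbered arrays deviated together, but the labels do not say what a number marks. With quantile normalization 6, 4 and 6 members passed, and 386, 2790 and 1527 probe sets. With the mean of all probe sets of a gene 2, 2 and 1 passed, against 0.893%, 6.49% and 3.22% of all genes. The arrays of 2 groups only gave 1, 0 and 0, against 0.361%, 2.13% and 0.741% of all probe sets. Leaving out each array gave 0 to 1, 0 to 1 and 0 to 2 members. The median difference ran from 0.194 to 0.312 over all alternatives of stretch against control and from 0.077 to 0.221 of stretch against phenylephrine. In phenylephrine against control it ran from -0.001 to 0.196 with 1 array left out. Median centring, no variance trend and the filter, which left 56 members, kept the 3 counts.

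Of 145 single gene differences, 29 changed sign when 1 array was left out. In stretch against control the ranges were Ddx52 -0.009 to 0.185, Imp3 -0.038 to 0.087, Polr2f -0.083 to 0.154, Rrn3 -0.036 to 0.155, Rrp1b -0.008 to 0.042. In phenylephrine against control they were Ddx18 -0.104 to 0.047, Ddx21 -0.056 to 0.278, Gar1 -0.188 to 0.294, Gnl3 -0.059 to 0.194, Imp3 -0.044 to 0.196, Ncl -0.342 to 0.198, Nob1 -0.096 to 0.029, Nop10 -0.295 to 0.052, Nop58 -0.250 to 0.363, Polr1f -0.017 to 0.138, Riok3 -0.449 to 0.194, Taf1d -0.470 to 0.019, Ubtf -0.070 to 0.004, Utp15 -0.214 to 0.230, Utp3 -0.237 to 0.050. In stretch against phenylephrine they were Bysl -0.037 to 0.044, Fbl -0.142 to 0.352, Imp3 -0.171 to 0.068, Nhp2 -0.063 to 0.189, Nop56 -0.097 to 0.182, Pno1 -0.117 to 0.502, Polr1e -0.205 to 0.156, Rrp8 -0.257 to 0.015, Wdr43 -0.075 to 0.197. Other sign changes came with quantile normalization (Polr2f -0.015 in stretch against control, Ubtf 0.026, Nob1 0.004 and Ddx18 0.025 in phenylephrine against control, Nolc1 -0.001 and Bysl -0.058 in stretch against phenylephrine), with median centring (Bysl -0.008 in stretch against phenylephrine) and with the mean of all probe sets (Polr2f -0.019 and Ubtf -0.045 in stretch against control, Riok3 0.002 in phenylephrine against control). The cause was not tested. With 2 arrays per group, the number of arrays limits the precision.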
